A study of Homo sapiens with 12 samples.

Results

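The 10 genes described here encode 4 ligands of the vascular endothelial growth factor family (VEGFA, VEGFB, VEGFC and PGF), the neuropilins NRP1 and NRP2, 3 class 3 semaphorins (SEMA3A, SEMA3C and SEMA3F) and the plexin PLXNA1. They were taken by gene symbol from the 60671 named genes of the count table, and were chosen because NRP1 and VEGFA were higher and SEMA3F lower in cystine-deprived cells. Of the 10, 9 had enough counts to be among the 16994 genes tested, and VEGFC did not. Differences of these genes between the media, and the change of those differences with time, are therefore given as descriptions with no test. Their changes with time within each medium were tested, because the choice was made on the difference between media. These tests use the same samples, and the genes were chosen with earlier results known. Their p-values are therefore not independent of the choice.

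The cells were HCT116, a long-established human line from a colorectal carcinoma, of wild-type (WT) genotype, and the assay was RNA-seq. The 4 groups of 3 samples were cystine-deprived cells at 48 h and control cells at 48 h, and cystine-deprived cells at 24 h and control cells at 24 h. Deprived cells were given DMEM with 0 mM cystine, the oxidised dimer through which cells take up cysteine, and control cells stayed in full DMEM; both media held 10% fetal bovine serum and antibiotics. The title of the study places it in work on hypoxia and cysteine metabolism in colorectal cancer, but no group is labelled as hypoxic. A wash and a change of medium are described for the deprived cells only, so this step and the lack of cystine cannot be told apart. Nothing in the labels ties the samples of a group to independent cultures, and p-values therefore reflect sample-to-sample spread that may be technical.

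VEGF-A is the main growth factor of vascular endothelium and acts on the receptor tyrosine kinases encoded by FLT1 and KDR; VEGF-B and placental growth factor (PGF) bind FLT1, and VEGF-C acts on lymphatic vessels through FLT4. Neuropilins are single-pass co-receptors with a short cytoplasmic tail that bind both VEGF-A and the class 3 semaphorins. Class 3 semaphorins are secreted guidance cues whose signal passes through complexes of a neuropilin with a plexin of the A type. SEMA3A acts mainly through NRP1 and SEMA3F mainly through NRP2, and both are known to restrain vessel growth, so ligands with opposing actions share one pair of co-receptors. Carcinoma cells, too, can carry neuropilins and secrete both kinds of ligand.

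The stretch of DNA ahead of the transcription start is shown for 3 of the genes that were lower in deprived cells at both times, SEMA3F, SEMA3C and PGF. The RefSeq promoter table (build GRCh38.p14) held 7 of the 10 genes with 11 starts in all; VEGFA, NRP1 and SEMA3A are named only. For a gene with several starts, the start with the most GC boxes is shown. The 250 bases before it are printed 5′ to 3′ on the strand of the gene, and capitals mark the GC box, GGGCGG or its reverse complement CCGCCC, to which factors of the SP family bind, with overlapping matches each counted. The SEMA3F sequence is chr3:50154808-50155057 on the plus strand, the SEMA3C sequence is chr7:80919052-80919301 on the minus strand and the PGF sequence is chr14:74955598-74955847 on the minus strand. The SEMA3C sequence lies inside the annotated span of the gene, most of the PGF sequence lies inside that of PGF, and the SEMA3F sequence ends just past the annotated start of SEMA3F.
SEMA3F: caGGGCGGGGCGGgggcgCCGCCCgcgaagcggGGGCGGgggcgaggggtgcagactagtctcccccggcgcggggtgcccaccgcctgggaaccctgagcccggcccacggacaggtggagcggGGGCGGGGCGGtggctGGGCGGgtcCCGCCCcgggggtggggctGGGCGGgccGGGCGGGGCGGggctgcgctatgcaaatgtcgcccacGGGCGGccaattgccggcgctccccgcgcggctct
SEMA3C: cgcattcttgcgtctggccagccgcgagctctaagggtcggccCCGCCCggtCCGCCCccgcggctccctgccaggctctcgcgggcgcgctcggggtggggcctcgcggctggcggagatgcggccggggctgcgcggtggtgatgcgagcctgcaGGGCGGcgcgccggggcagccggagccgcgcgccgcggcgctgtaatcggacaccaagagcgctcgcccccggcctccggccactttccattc
PGF: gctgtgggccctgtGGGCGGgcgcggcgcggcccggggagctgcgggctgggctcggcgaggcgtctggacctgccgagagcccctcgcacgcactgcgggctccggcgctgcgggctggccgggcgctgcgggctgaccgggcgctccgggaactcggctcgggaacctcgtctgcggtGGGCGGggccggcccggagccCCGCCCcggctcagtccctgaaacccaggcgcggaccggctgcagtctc
The SEMA3F sequence was the richest of them, with 12 GC boxes and a GC content of 82%. The share of the 35116 promoters in the table that hold as many was 0.0484%, while 42.6% hold at least 1. The other starts of SEMA3F had 2 and 0 GC boxes. The SEMA3C and PGF sequences had 3 each, against 0 at the other SEMA3C start and 2 at the other PGF start. Among genes printed by name only, VEGFB had 6 GC boxes, PLXNA1 had 5 and NRP2 had 3. Neither gene that was higher in deprived cells has an entry in the table, so the boxes cannot be set against the direction of the difference between media. The C/EBP-ATF response element TGATGNAA, searched on both strands and present in 3.14% of promoters, had 1 match, ahead of a second SEMA3C start. The antioxidant response element TGACNNNGC, present in 10.9% of promoters, had 1 match, in the PGF sequence printed here. Hypoxia response element cores were searched as ACGTG, present in 18.5% of promoters, and GCGTG, present in 32.2%; the first had no match in the 11 sequences, and the second had 1 match each ahead of VEGFB, VEGFC and the printed PGF start. The AP-1 site TGANTCA, present in 6.57% of promoters, had no match. These matches describe letters in a short window only.

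The libraries held 19146108 to 24179533 estimated counts each. The first principal component of the tested genes carried 70.4% of the variance and placed the deprived samples at 48 h (56.0 to 58.9) and at 24 h (19.2 to 21.0) apart from all 6 controls (-42.6 to -35.1). The epithelial identity of the cells was visible in 8 of 9 colon epithelium markers with a mean of at least 1 CPM (counts scaled to library size), led by KRT8 at 2084 CPM, whereas CEACAM5 was near 0 (0.0320 CPM). KRT20 and VIL1 were barely past that level, with means of 1.27 and 1.09 CPM. The summed level of these markers was 4734 to 5275 CPM in deprived cells and 3987 to 4399 CPM in control cells at 48 h, and 5084 to 5213 CPM in deprived cells and 3685 to 4091 CPM in control cells at 24 h. This sum was mostly KRT8, KRT18 and KRT19, whose means were higher in deprived cells at both times. Other markers went the other way at 48 h. KRT20 had 0.122 CPM in deprived cells and 1.66 CPM in control cells, and EPCAM had 255 and 312 CPM. Of 8 leukocyte markers, 3 (PTPRC, CD3E and NKG7) were at 0 in all samples and none was tested. Mitochondrial transcripts held 6.42% to 8.65% of counts.

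VEGFA (ENSG00000112715, chr6:43770184-43786487, plus strand) was higher in deprived cells at both times. In bulk RNA, as here, a change in the share of cells that make a transcript and a change in its amount per cell cannot be told apart. At 48 h its level was 417, 381 and 393 CPM in the deprived samples, against 119, 131 and 114 CPM in the control samples. At 24 h its level was 243, 272 and 255 CPM in the deprived samples, against 68.2, 74.9 and 79.5 CPM in the control samples. Every deprived sample lay above every control sample, including the deprived samples at 24 h set against the controls at 48 h. The difference was 3.27-fold at 48 h (log2 1.71 ± 0.07, SE) and 3.46-fold at 24 h (log2 1.79 ± 0.07). On the log2 scale the gap between the media changed by -0.08 ± 0.09 (48 h minus 24 h), less than its standard error.

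VEGFA also rose with time in both media, by a like factor. In deprived cells it averaged 397 ± 18.4 CPM at 48 h and 257 ± 14.4 CPM at 24 h (SD, n = 3 each), which is 1.55-fold higher at 48 h (log2 0.63 ± 0.06, adjusted p = 1.70e-07). In control cells it averaged 121 ± 8.57 CPM at 48 h and 74.2 ± 5.72 CPM at 24 h (SD, n = 3 each), which is 1.63-fold higher at 48 h (log2 0.71 ± 0.07, adjusted p = 6.33e-07). In each medium the 3 samples at 48 h all lay above the 3 at 24 h.

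The other ligands of the family did not share this pattern. VEGFB, whose product is linked, in mice, to fatty acid handling and cell survival more than to vessel growth, was slightly lower in deprived cells. It averaged 10.6 ± 0.366 CPM in deprived cells and 13.9 ± 2.30 CPM in control cells at 48 h, and 9.63 ± 1.57 CPM in deprived cells and 12 ± 0.568 CPM in control cells at 24 h (SD, n = 3 each). In CPM the groups did not overlap at either time. At both times the nearest samples of the media were close (11.0 against 11.5 CPM at 48 h, and 11.2 against 11.4 CPM at 24 h). As TPM, a measure also scaled for gene length, the groups overlapped at 48 h (16.3 in the first deprived sample, 16.2 in the first control sample). PGF, which binds FLT1 and neuropilins but not KDR, was lower by log2 fold changes of -0.76 ± 0.17 at 48 h and -1.16 ± 0.17 at 24 h. PGF averaged 3.11 ± 0.165 CPM in deprived cells and 5.28 ± 0.808 CPM in control cells at 48 h, and 3.17 ± 0.416 CPM in deprived cells and 7.09 ± 1.02 CPM in control cells at 24 h. VEGFC was represented by 1 count in 1 of 12 libraries, a control sample at 48 h. A level below 3 counts, which is 0.128 to 0.154 CPM depending on the library, could not be detected for it.

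With time, neither VEGFB nor PGF changed past the threshold in either medium. The adjusted p for VEGFB was 0.415 in deprived cells and 0.233 in control cells, and the adjusted p for PGF in deprived cells was 0.917. PGF in control cells had a log2 difference of -0.43 ± 0.16 (48 h minus 24 h, adjusted p = 0.0623), which was past the threshold without the second control sample at 24 h (adjusted p = 0.0448) and without the second control sample at 48 h (adjusted p = 0.0393). Over all alternatives its adjusted p ran from 0.0337 to 0.230.

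NRP1 (ENSG00000099250, chr10:33177492-33336262, minus strand), the co-receptor that binds both VEGF-A and SEMA3A, had the largest difference between media among the 10 genes. At 48 h its level was 63.7, 59.8 and 66.6 CPM in the deprived samples, against 3.54, 3.84 and 3.30 CPM in the control samples. At 24 h its level was 33.8, 36.4 and 36.1 CPM in the deprived samples, against 1.94, 2.16 and 2.05 CPM in the control samples. The groups were far apart: the lowest deprived sample, at 33.8 CPM, stood beside a highest control sample of 3.84 CPM. The difference was 17.8-fold at 48 h (log2 4.15 ± 0.09) and 17.3-fold at 24 h (log2 4.11 ± 0.10), and it changed by 0.04 ± 0.16 on the log2 scale between the times. The deprived values rest on 693 to 1462 estimated counts per library and the control values on 40 to 84.

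As with VEGFA, NRP1 rose with time in both media. In deprived cells it was 1.79-fold higher at 48 h than at 24 h (log2 0.84 ± 0.06, adjusted p = 4.43e-09). In control cells it was 1.74-fold higher at 48 h than at 24 h (log2 0.80 ± 0.13, adjusted p = 0.000302). All 3 samples at 48 h lay above all 3 at 24 h in each medium.

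NRP2 (ENSG00000118257), the neuropilin preferred by SEMA3F, was scarce and lower in deprived cells. It averaged 0.423 ± 0.147 CPM in deprived cells and 0.904 ± 0.166 CPM in control cells at 48 h, and 0.405 ± 0.0927 CPM in deprived cells and 1.21 ± 0.473 CPM in control cells at 24 h (SD, n = 3 each). These values rest on 7 to 30 counts per library, and the gene passed the filter on low counts through its control samples. Its log2 fold change of -1.09 ± 0.42 at 48 h was -0.93 without the second deprived sample and -1.40 without the third, and that at 24 h was -1.57 ± 0.42. NRP2 did not change past the threshold with time in control cells (adjusted p = 0.476), and its 7 to 13 counts per deprived library are too few to follow it with time there.

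SEMA3F (ENSG00000001617, chr3:50155045-50189075, plus strand) was lower in deprived cells, and more so at the later time. At 48 h its level was 4.71, 5.06 and 4.64 CPM in the deprived samples, against 25.3, 34.4 and 27.8 CPM in the control samples. At 24 h its level was 9.70, 11.7 and 10.9 CPM in the deprived samples, against 23.2, 26.0 and 26.4 CPM in the control samples. The samples fell into 3 levels, with deprived cells at 48 h lowest, deprived cells at 24 h next and all 6 controls highest. Control cells had 6.06 times the level of deprived cells at 48 h (log2 -2.60 ± 0.12) and 2.34 times at 24 h (log2 -1.23 ± 0.11), and the log2 difference changed by -1.37 ± 0.16 between the times.

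With time, SEMA3F fell in deprived cells, to 4.80 ± 0.222 CPM at 48 h, against 10.7 ± 0.990 CPM at 24 h (SD, n = 3 each; log2 -1.16 ± 0.13, adjusted p = 7.50e-07). In control cells it averaged 29.1 ± 4.7 CPM at 48 h and 25.2 ± 1.77 CPM at 24 h (log2 0.21 ± 0.10, adjusted p = 0.145), with samples that overlap. That control difference was past the threshold when the first control sample at 48 h was left out (log2 0.30, adjusted p = 0.0401), and over all alternatives its adjusted p reached up to 0.656.

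SEMA3A (ENSG00000075213, chr7:83955777-84492724, minus strand), the founding repulsive cue of the class, had the same order of groups as SEMA3F with smaller differences. At 48 h its level was 3.57, 3.20 and 3.69 CPM in the deprived samples, against 12.6, 11.6 and 12.3 CPM in the control samples. At 24 h its level was 6.24, 7 and 6.85 CPM in the deprived samples, against 12.1, 12.3 and 11.9 CPM in the control samples. No deprived sample reached a control sample, and the deprived samples at 48 h all lay below those at 24 h. The log2 fold change was -1.80 ± 0.11 at 48 h and -0.85 ± 0.10 at 24 h, a change of -0.95 ± 0.15 between the times. Within deprived cells SEMA3A fell by 0.94 on the log2 scale (48 h minus 24 h, SE 0.12, adjusted p = 2.94e-06), while in control cells the difference was 0.00 ± 0.10 (adjusted p = 0.983).

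SEMA3C (ENSG00000075223, chr7:80742538-80922359, minus strand), a class 3 semaphorin that tumour cells often make and that in several settings promotes rather than restrains migration, was lower in deprived cells to a similar degree at both times. At 48 h its level was 11.5, 12.2 and 9.65 CPM in the deprived samples, against 41.4, 32.3 and 39.3 CPM in the control samples. At 24 h its level was 12.5, 14.5 and 11.4 CPM in the deprived samples, against 40.6, 38.5 and 38.4 CPM in the control samples. The 6 deprived samples lay within a narrow band well under the 6 controls. The log2 fold change was -1.76 ± 0.11 at 48 h and -1.61 ± 0.10 at 24 h, with a change of -0.15 ± 0.15 between the times. No change with time passed the threshold in deprived cells (log2 -0.21 ± 0.12, adjusted p = 0.157) or control cells (log2 -0.06 ± 0.09, adjusted p = 0.719).

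PLXNA1 (ENSG00000114554, chr3:126988594-127037392, plus strand), the plexin that carries the semaphorin signal into the cell, was much the same in all groups. It averaged 95.9 ± 6.64 CPM in deprived cells and 105 ± 5.38 CPM in control cells at 48 h, and 95.1 ± 9.28 CPM in deprived cells and 97.6 ± 3.24 CPM in control cells at 24 h (SD, n = 3 each), and the samples of the media overlapped at both times. The log2 fold change was -0.14 ± 0.07 at 48 h and -0.04 ± 0.07 at 24 h, and the second ranged from -0.11 to 0.04 over the alternative settings, so its sign is not settled. With time it had an adjusted p of 0.906 in deprived cells and 0.267 in control cells.

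**Figure D1:**
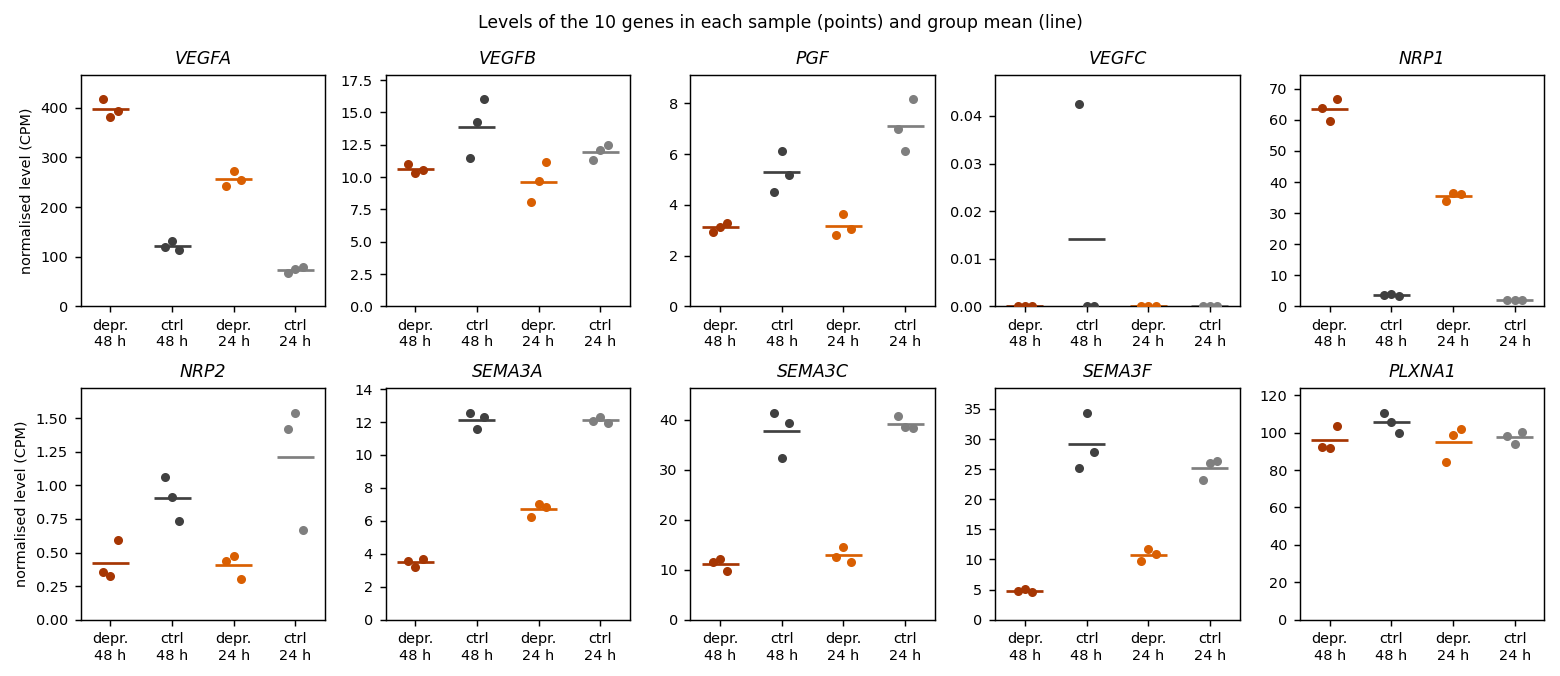
Normalised level in CPM (vertical axis, one scale per gene, starting at 0) of each of the 10 genes in the 12 samples, with points for samples and lines for the means of the 3 samples of each group. VEGFA and NRP1 stand above the controls in deprived cells at both times, SEMA3A and SEMA3F step down between 24 h and 48 h in deprived cells, and VEGFC has 1 count in 1 control sample.

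Between the media, in CPM, 2 members lay above the controls in every deprived sample (VEGFA and NRP1) and 6 lay below (VEGFB, PGF, NRP2, SEMA3A, SEMA3C and SEMA3F), at 48 h and at 24 h alike. PLXNA1 and VEGFC overlapped, and VEGFB overlapped at 48 h when taken as TPM. Among all tested genes, 33.5% were called higher and 34.9% lower in deprived cells at 48 h, and 28.8% were called higher and 26.9% lower at 24 h (adjusted p under 0.05). The larger side at 24 h depended on the scaling, with 4886 genes higher and 4565 lower as fitted, 4160 and 5300 under upper-quartile scaling, and 4086 and 5320 with library totals as the scale. Such calls are a different measure from samples that do not overlap, and the share of all genes without overlap was not counted. The members were picked on these contrasts, so nothing is read from their count. Within deprived cells, 2 of the 9 tested members rose (VEGFA and NRP1), 2 fell (SEMA3A and SEMA3F) and 5, the scarce NRP2 among them, did not pass the threshold between 24 h and 48 h. Of all tested genes, 20.7% rose and 21.8% fell in that comparison, so the members' share is near that of all genes. Within control cells, 2 members rose (again VEGFA and NRP1), 0 fell and 7 did not pass the threshold, where 12.7% of all tested genes rose and 10.4% fell. The count of 0 is by edgeR, and DESeq2 also gave 0; at an unadjusted p under 0.05 it was 1, PGF.

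**Figure D2:**
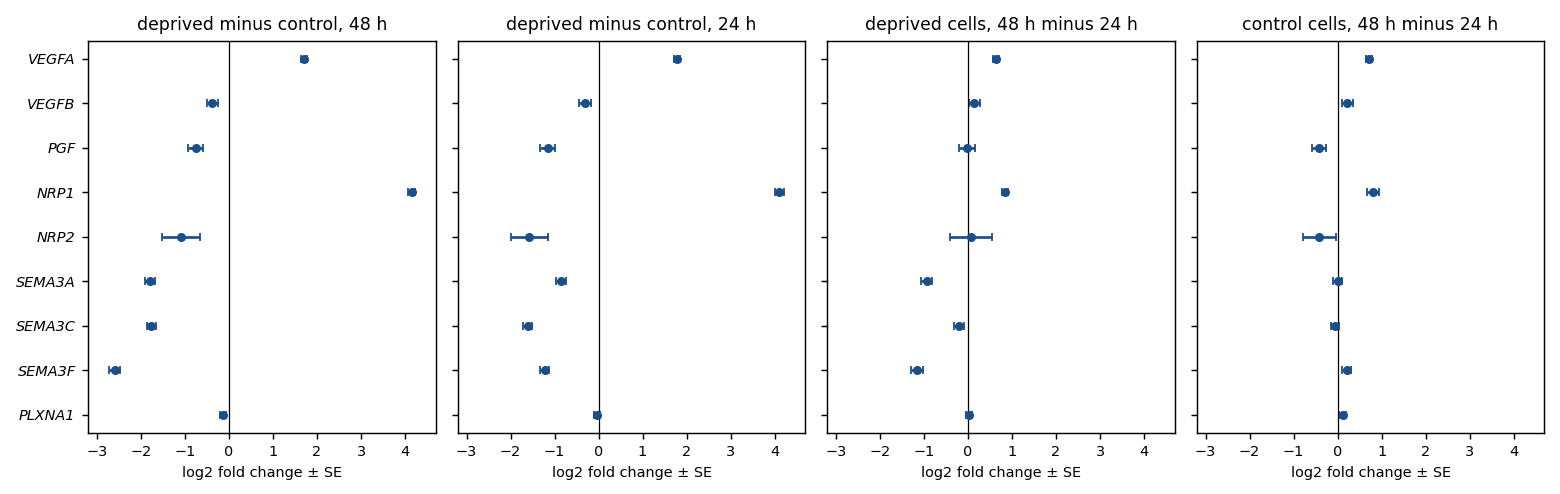
Log2 fold change (horizontal axis) with its standard error for the 9 tested members in 4 comparisons: deprived minus control at 48 h and at 24 h, and 48 h minus 24 h in deprived and in control cells. NRP1 lies near 4.1 and VEGFA near 1.7 in both comparisons of media, and SEMA3A and SEMA3F lie left of 0 with time in deprived cells but not in control cells.

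Levels of different genes were compared per length, as TPM (a transcript measure scaled for gene length and library size). TPM was computed from the counts and the deposited gene length, which is the same in all samples. That length was 1286 bases for VEGFA and 666 bases for PGF, and ranks, shares and ratios between genes rest on it. VEGFA had the highest level of the 10 genes in every group, at 599 ± 53.5 TPM in deprived cells and 177 ± 11.7 TPM in control cells at 48 h, and 386 ± 24.7 TPM in deprived cells and 115 ± 6.79 TPM in control cells at 24 h (SD, n = 3 each). Behind it the order differed between media. In deprived cells NRP1 ranked 2 of 10 at 48 h (21.8 ± 1.57 TPM), overlapping PLXNA1 (20.5 ± 1.29 TPM), and 4 of 10 at 24 h (12.1 ± 0.533 TPM), overlapping VEGFB (13.5 ± 2.12 TPM) and SEMA3C (10.3 ± 1.37 TPM). In control cells it ranked 8 of 10 at both times, with 1.19 ± 0.0897 TPM at 48 h and 0.723 ± 0.0330 TPM at 24 h.

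In deprived cells SEMA3A and SEMA3F overlapped each other at both times, at 2.65 ± 0.251 and 2.58 ± 0.122 TPM at 48 h. In control cells SEMA3C held the second rank, with 29.4 ± 4.37 TPM at 48 h and 32.3 ± 1.61 TPM at 24 h. Below it, PLXNA1, VEGFB, SEMA3F and PGF each overlapped the next in order at 48 h, apart from PGF, which lay above SEMA3A. At 24 h PLXNA1 and PGF overlapped, and VEGFB, SEMA3F and SEMA3A followed without overlap. NRP2 and VEGFC held the last 2 ranks in all 4 groups.

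The composition of each family shifted accordingly. VEGFA made up 96.1 ± 0.145% of the summed TPM of the 4 VEGF ligands in deprived cells and 84.0 ± 1.93% in control cells at 48 h, and 94.5 ± 0.478% in deprived cells and 74.9 ± 1.35% in control cells at 24 h (SD, n = 3 each). NRP1 made up 99.4 ± 0.165% of the neuropilin TPM in deprived cells and 82.4 ± 2.36% in control cells at 48 h, and 99.0 ± 0.226% in deprived cells and 67.5 ± 9.47% in control cells at 24 h. The ratio of NRP1 to PLXNA1 TPM was 1.06 ± 0.0401 in deprived cells and 0.0543 ± 0.00365 in control cells at 48 h, and 0.601 ± 0.0377 in deprived cells and 0.0338 ± 0.00267 in control cells at 24 h. Per length, NRP1 mRNA was thus at the level of PLXNA1 mRNA in deprived cells at 48 h and far under it in control cells. Protein was not measured. All of these shares restate the differences on which the genes were picked and carry no test.

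SEMA3A, SEMA3C and SEMA3F together had 14.2 ± 1.25 TPM in deprived cells and 53.5 ± 2.96 TPM in control cells at 48 h, and 21.1 ± 2.02 TPM in deprived cells and 55.6 ± 1.10 TPM in control cells at 24 h. The ratio of VEGFA to this sum was 43.4, 38.5 and 45.4 in the deprived samples, against 3.17, 3.70 and 3.08 in the control samples at 48 h. At 24 h the ratio was 18.3, 17.6 and 19 in the deprived samples, against 1.89, 2.08 and 2.22 in the control samples. No sample of one group overlapped another group in this ratio. It sets VEGFA, picked as higher, over a sum that holds SEMA3F, picked as lower. Its separation of the media therefore restates the choice of genes and carries no test. The sum over all 7 class 3 semaphorins differed less, at 57.9 ± 4.31 TPM in deprived cells and 80.9 ± 3 TPM in control cells at 48 h, and 51.7 ± 4.38 TPM in deprived cells and 83.8 ± 2.04 TPM in control cells at 24 h.

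SEMA3B, a class 3 semaphorin known as a candidate tumour suppressor and not one of the 10 genes, lay on the other side. It made up 72.8 ± 2.18% of the class 3 TPM in deprived cells and 28.6 ± 1.04% in control cells at 48 h, and 53.6 ± 0.490% in deprived cells and 26.3 ± 0.373% in control cells at 24 h. SEMA3C held the largest share in control cells instead, with 15.4 ± 1.94% in deprived cells and 36.3 ± 4.14% in control cells at 48 h, and 19.8 ± 1.42% in deprived cells and 38.5 ± 0.977% in control cells at 24 h.

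**Figure D3:**
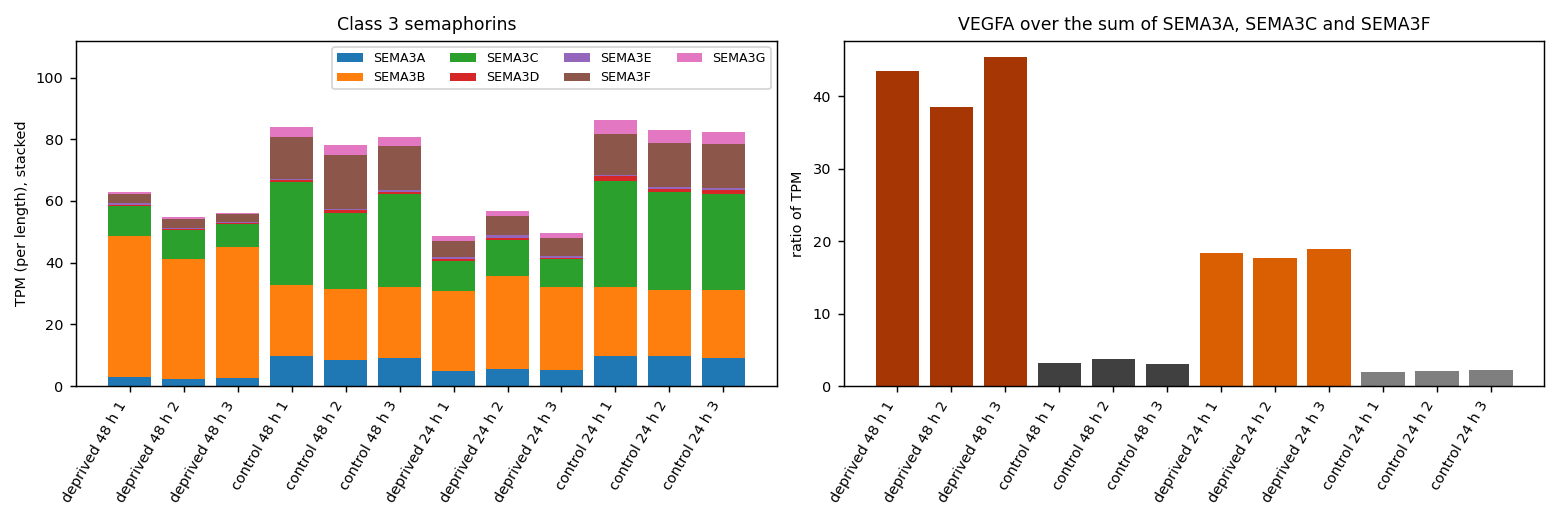
Left, TPM of the 7 class 3 semaphorins stacked for each of the 12 samples; right, the ratio of VEGFA TPM to the summed TPM of SEMA3A, SEMA3C and SEMA3F in each sample. The SEMA3C, SEMA3F and SEMA3A segments are shorter and the SEMA3B segment taller in deprived samples, and the ratio lies between 17.6 and 45.4 in deprived samples and between 1.89 and 3.70 in controls.

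Beyond the 10 genes, 92 other genes in 10 lists were examined: ligands, receptors, semaphorins, plexins, partners, signalling and processing genes, regulators of VEGFA and other angiogenic factors. Of these, 79 were tested. In deprived cells 27 were higher and 34 lower at 48 h (34.2% and 43.0% of the 79), and 29 were higher and 32 lower at 24 h (36.7% and 40.5%), against the shares of all tested genes given above. The median log2 fold change was -0.03 at 48 h and 0.02 at 24 h, beside -0.02 and -0.01 over all tested genes. The effect of deprivation differed between the times in 41 of the 79, with 17 differences higher and 24 lower at 48 h (21.5% and 30.4%), where 16.4% of all tested genes were called higher and 19.2% lower. Without the third deprived sample at 48 h, 11 differences were higher and 23 lower. With time, 24 rose and 17 fell in deprived cells (30.4% and 21.5%), where 20.7% of all tested genes rose and 21.8% fell. In control cells 23 rose and 11 fell (29.1% and 13.9%), where 12.7% of all tested genes rose and 10.4% fell. The 11 were 6 without the first or second control sample at 24 h or the first at 48 h, and 7 without the second at 48 h.

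The receptors of the VEGF ligands were barely detected. KDR had 0.304 CPM in deprived cells and 0.252 CPM in control cells at 48 h, and 0.578 CPM in deprived cells and 0.347 CPM in control cells at 24 h, and its difference between media did not pass the threshold (log2 0.25 ± 0.52, adjusted p = 0.682 at 48 h; log2 0.73 ± 0.46, adjusted p = 0.198 at 24 h). KDR passed the filter on low counts through its deprived samples at 24 h, the group where it was highest, so nothing is read from these tests. FLT1 and FLT4, with means of 0.0189 and 0.114 CPM over all samples, had too few counts to be tested. Of the 4 tested VEGF and PDGF ligands outside the 10 genes, PDGFB, a mitogen for pericytes, was higher at both times (log2 1.23 ± 0.08 at 48 h, adjusted p = 1.78e-10; 0.89 ± 0.09 at 24 h, adjusted p = 1.58e-07). PDGFA was lower at 48 h (log2 -1.38 ± 0.10, adjusted p = 3.98e-10) and had 0.03 ± 0.11 at 24 h (adjusted p = 0.845).

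Most semaphorins were lower in deprived cells. Of the other class 3 genes, SEMA3G was lower at both times (log2 -2.25 ± 0.15 at 48 h and -1.28 ± 0.13 at 24 h), as was SEMA3D (-1.18 ± 0.26 and -1.26 ± 0.24), SEMA3B was higher (0.82 ± 0.07 and 0.38 ± 0.07) and SEMA3E did not pass the threshold (adjusted p = 0.158 at 48 h and 0.678 at 24 h). Of 9 tested semaphorins of other classes, which are mostly bound to the membrane, 8 were lower and 1 was higher at both times, with a median log2 fold change of -1.09 at 48 h and -0.45 at 24 h. Among the lower ones were SEMA6A (-1.84 ± 0.12 at 48 h and -0.45 ± 0.11 at 24 h), SEMA6C (-1.36 ± 0.11 and -0.88 ± 0.12) and SEMA4G (-1.18 ± 0.09 and -0.88 ± 0.10). The higher one was SEMA7A (1.37 ± 0.09 and 0.61 ± 0.10), which is anchored to the membrane by a lipid and acts on integrins.

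Among 7 tested plexins besides PLXNA1, 4 were lower and 0 higher at both times by edgeR (0 higher also by DESeq2 and at an unadjusted p under 0.05), with median log2 fold changes of -0.66 at 48 h and -0.38 at 24 h. PLXND1, the receptor of SEMA3E, had -1.22 ± 0.07 at 48 h and -0.49 ± 0.07 at 24 h. PLXNB1, a receptor of SEMA4D, had -0.96 ± 0.08 and -0.62 ± 0.08, and PLXNA3, a partner of NRP2 in SEMA3F signalling in mouse neurons, had -0.73 ± 0.07 and -0.38 ± 0.07. The difference for PLXNB2 at 24 h (-0.14 ± 0.06, adjusted p = 0.0360) was lost on leaving out any of 4 single samples, with an adjusted p of up to 0.183 and log2 values of -0.15 to -0.10 without them. No plexin was called higher, so the level of PLXNA1 in deprived cells stood among neighbours that were lower or not called.

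The co-receptors and neuropilin partners ran the other way, with 5 of 8 higher and 1 lower at 48 h, and 6 higher and 0 lower at 24 h by edgeR (0 lower also by DESeq2 and at an unadjusted p under 0.05). SDC4, a heparan sulphate proteoglycan that helps growth factors bind, was higher (log2 1.03 ± 0.06 at 48 h and 0.77 ± 0.06 at 24 h), as was SDC1 (0.82 ± 0.08 and 0.62 ± 0.08). GIPC1, the adaptor that binds the tail of NRP1 and guides its uptake, was slightly higher (0.17 ± 0.06, adjusted p = 0.0151 at 48 h; 0.23 ± 0.06, adjusted p = 0.00348 at 24 h). The 48 h difference of GIPC1 was lost under upper-quartile scaling (adjusted p = 0.0703) and without the first control sample (0.102) or the second deprived sample (0.0674) at 48 h. NETO2, counted as higher at both times (0.20 ± 0.08 at 48 h and 0.21 ± 0.08 at 24 h), was less stable. It kept its call under 10 of 20 alternatives at 48 h and 11 of 20 at 24 h. GPC1 and DCBLD1, not called at 48 h, passed the threshold there under some alternatives. L1CAM, a partner of NRP1 in SEMA3A signalling in mouse neurons, was higher at 48 h (0.51 ± 0.10) and had -0.08 ± 0.11 at 24 h (adjusted p = 0.571). The lower gene at 48 h was DCBLD2 (-0.19 ± 0.05), a protein with a neuropilin-like outer part. The medians were 0.19 at 48 h and 0.23 at 24 h.

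Downstream and processing genes were mixed. Of 14 tested genes that act below plexins, 5 were higher and 7 lower at 48 h, and 4 were higher and 9 lower at 24 h. MICAL2, an enzyme that oxidises actin, had the largest log2 fold change of them ( 1.57 ± 0.06 at 48 h and 1.74 ± 0.06 at 24 h), while DPYSL2, a mediator of SEMA3A in growth cones that was found in chick neurons, was lower (-1.10 ± 0.06 and -1.01 ± 0.06), with DPYSL3 and DPYSL5 on the same side. FURIN and PCSK5, convertases of the kind that cleave class 3 semaphorins, were lower (FURIN -0.93 ± 0.07 at 48 h and -0.63 ± 0.07 at 24 h; PCSK5 -1.20 ± 0.14 and -0.85 ± 0.14). PCSK7 was higher at 48 h (0.87 ± 0.08), and its 24 h difference (0.22 ± 0.07, adjusted p = 0.0161) was lost with no filter (adjusted p = 0.0535), under scaling by upper quartile (0.0824) or library totals (0.0965), and without the second control sample (adjusted p = 0.0860) or the second deprived sample (adjusted p = 0.0756) at 24 h.

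Regulators of VEGFA mRNA did not move one way. Of 15 tested, 6 were higher and 5 lower at 48 h, and 8 were higher and 4 lower at 24 h. HIF1A, which encodes the oxygen-regulated subunit of the hypoxia-inducible factor, was higher (log2 0.83 ± 0.05 at 48 h and 0.47 ± 0.05 at 24 h), while EPAS1, which encodes its relative HIF-2α, was lower (-0.67 ± 0.07 and -0.25 ± 0.07). ATF4, the amino acid stress factor that can act on VEGFA, was higher (0.68 ± 0.06 and 0.42 ± 0.06), as was NFE2L2, which encodes the oxidant-stress factor NRF2 (0.92 ± 0.06 and 0.77 ± 0.06). ZFP36L2, whose product binds AU-rich elements and promotes mRNA decay, was lower (-1.38 ± 0.06 and -0.67 ± 0.06). ZFP36, in the same list, went the other way at 24 h, with log2 0.88 to 0.99 over all settings. At 48 h it had 0.05 to 0.23, and passed the threshold only without the second control sample at 48 h (adjusted p = 0.00322). HIF proteins are controlled mainly by their breakdown, so mRNA levels of HIF1A and EPAS1 do not measure their activity.

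ADM, ANGPTL4 and EGLN3 were lower in deprived cells at both times, where VEGFA was higher. All 4 are well-known targets of the hypoxia-inducible factors, but these 3 were chosen after their values were seen and no list of such targets was counted. PDGFA was added because it is a growth factor of the same superfamily; PDGFB, its relative, was higher in deprived cells as VEGFA was. ADM, which encodes the vessel peptide adrenomedullin, had 46.7, 55.7 and 54.4 CPM in the deprived samples, against 177, 186 and 178 CPM in the control samples at 48 h (log2 -1.79 ± 0.08, adjusted p = 2.97e-13). At 24 h ADM had 43.6, 45.2 and 48.8 CPM in the deprived samples, against 54.9, 66.0 and 70.5 CPM in the control samples (log2 -0.47 ± 0.08, adjusted p = 7.49e-05). Deprived samples were below controls for ADM where they were above them for VEGFA. EGLN3, a HIF prolyl hydroxylase, was lower by log2 -1.99 ± 0.11 at 48 h and -0.98 ± 0.11 at 24 h. ANGPTL4, a secreted inhibitor of lipoprotein lipase, was lower by -1.10 ± 0.11 at 48 h and -0.39 ± 0.12 at 24 h, and the 24 h difference lost its call without the second control sample at 24 h (log2 -0.23, adjusted p = 0.114).

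The same genes were followed with time in each medium (log2 change, 48 h minus 24 h). In deprived cells VEGFA rose by 0.63 ± 0.06, ANGPTL4 by 0.93 ± 0.12 (adjusted p = 3.99e-06) and PDGFA by 0.33 ± 0.11 (adjusted p = 0.0201), EGLN3 fell by 0.38 (SE 0.12, adjusted p = 0.0187), and ADM had 0.19 ± 0.08 (adjusted p = 0.0778). The PDGFA call was lost without the first (adjusted p = 0.0726) or second (0.0565) deprived sample at 24 h or the second at 48 h (0.0617). The EGLN3 call was lost without the third deprived sample at 24 h (adjusted p = 0.116) or the first (0.0602) or the third (0.0817) at 48 h. ADM passed the threshold under 6 alternatives, with DESeq2 (adjusted p = 0.0462) and the replicate block (0.0247) among them. In control cells all 4 rose, as VEGFA did. The log2 change there was 1.5 ± 0.08 for ADM (adjusted p = 3.46e-10), 1.64 ± 0.11 for ANGPTL4 (adjusted p = 1.04e-08), 0.63 ± 0.10 for EGLN3 (adjusted p = 0.000239) and 1.74 ± 0.10 for PDGFA (adjusted p = 1.74e-09), beside 0.71 ± 0.07 for VEGFA. HIF1A itself fell with time in control cells (-0.27 ± 0.05, adjusted p = 0.00137).

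**Figure D4:**
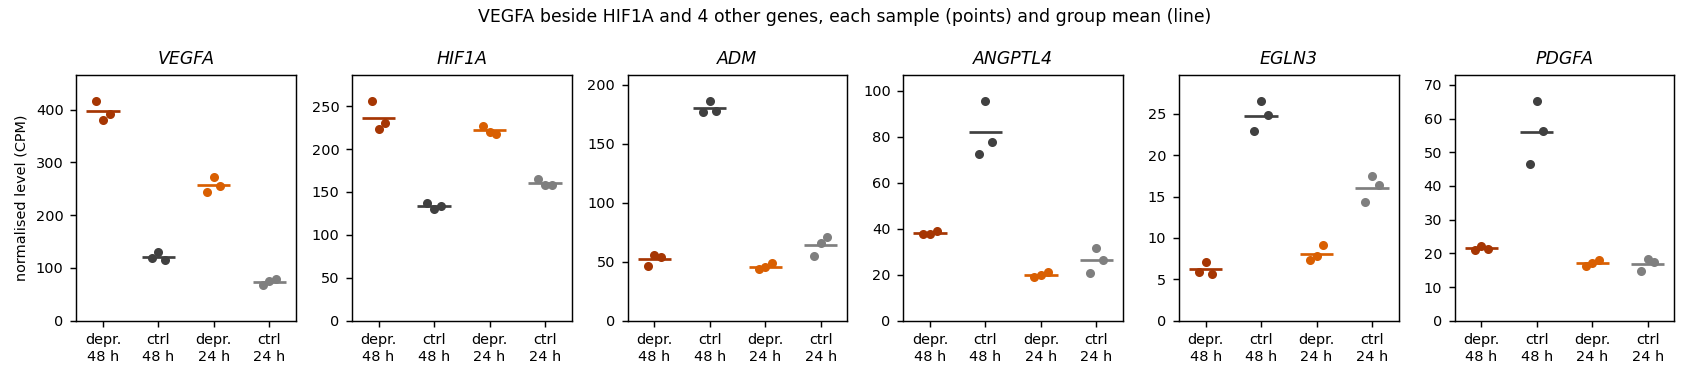
Normalised level in CPM (vertical axes start at 0) of VEGFA, HIF1A, ADM, ANGPTL4, EGLN3 and PDGFA in each of the 12 samples, with lines at group means. VEGFA and HIF1A are highest in deprived cells, whereas ADM, ANGPTL4, EGLN3 and PDGFA are highest in control cells at 48 h. ADM, ANGPTL4 and EGLN3 were chosen after their values were seen, and PDGFB, which was higher in deprived cells, is not shown.

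Of 13 other tested angiogenic factors, 7 were higher and 4 lower in deprived cells at 48 h, and 7 were higher and 3 lower at 24 h, with median log2 fold changes of 0.74 and 0.31. ANGPT4, an angiopoietin that binds the endothelial receptor TEK, had 37.1 CPM in deprived cells and 1.53 CPM in control cells at 48 h (log2 4.59 ± 0.15), and 29.3 CPM in deprived cells and 2.28 CPM in control cells at 24 h (log2 3.68 ± 0.15). HBEGF, a heparin-binding ligand of the EGF receptor, was higher by 2.60 ± 0.10 at 48 h and 1.73 ± 0.11 at 24 h. TYMP, an enzyme once named platelet-derived endothelial growth factor, was higher by 1.46 ± 0.06 and 0.93 ± 0.06. EFNA1, a membrane-bound ephrin, was lower by -0.39 ± 0.10 and -0.58 ± 0.11.

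**Figure D5:**
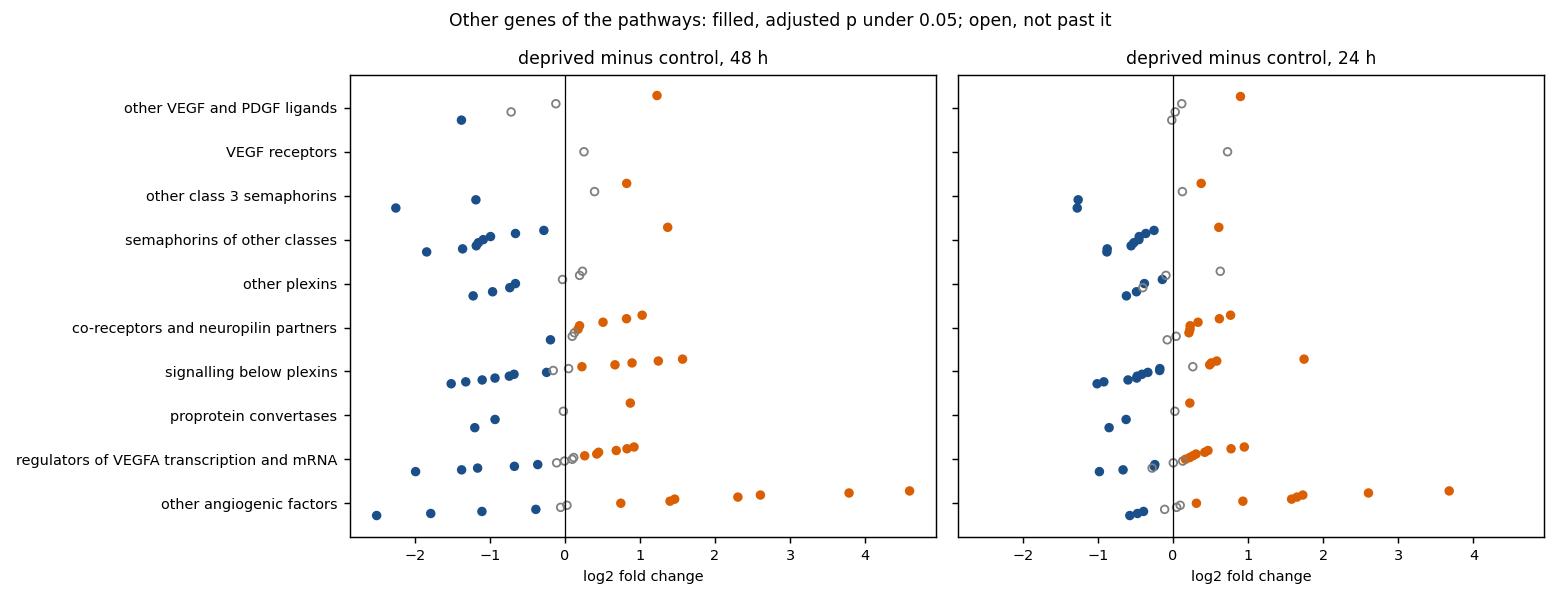
Log2 fold change, deprived minus control (horizontal axis), of the 79 tested genes in the 10 lists at 48 h (left) and 24 h (right); filled points passed an adjusted p of 0.05 and open points did not. Of 9 semaphorins of other classes 8 lie left of 0 at both times, while most co-receptors and partners lie right of it.

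Markers of the vessel wall and stroma were examined because VEGF, neuropilin and semaphorin transcripts are also made by endothelium and fibroblasts. Of 8 endothelial markers, 3 were tested (VWF, ESAM and ROBO4), and PECAM1 had a mean of 0.101 CPM and CDH5 of 0.0315 CPM. Their summed level was 11.2 to 12.7 CPM in deprived cells and 7.07 to 9.05 CPM in control cells at 48 h, and 9.64 to 9.90 CPM in deprived cells and 6.78 to 9.51 CPM in control cells at 24 h. The higher sum came from ROBO4, with 6.75 CPM in deprived cells and 0.178 CPM in control cells at 48 h, while ESAM and VWF were not higher at that time. The summed level of 8 fibroblast markers, nearly all COL1A1, was 20.4 to 22.6 CPM in deprived cells and 44.7 to 49.4 CPM in control cells at 48 h, and 16.3 to 20.7 CPM in deprived cells and 32.3 to 34.6 CPM in control cells at 24 h; DCN and LUM were near 0 (0.00775 and 0.0157 CPM). The part of these in the differences of the 10 genes was not tested.

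Reads of transcripts on the other strand could enter some of these counts, since library strandedness is not stated in these sources. Exons of SEMA3F-AS1 overlap SEMA3F and reached 1.33 CPM at most, and exons of AL136131.3 overlap VEGFA and reached 1.14 CPM at most. The antisense genes that overlap NRP1 and NRP2 were at 0 in all samples.

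The genes whose pattern over the 12 samples was most like that of a member were found by Pearson's r of log2(CPM + 1) among 11184 genes whose mean was 5 CPM or more. The 12 points share 4 groups, so a high r mainly records a like order of group levels, and no p is given. For NRP1 the closest were ARHGEF2, a microtubule-bound exchange factor for RhoA, the hormone gene FGF19, DNAJB9, a chaperone of the endoplasmic reticulum, RAB6A and the stress cytokine gene GDF15 (r of 0.997 to 0.998). For VEGFA they were the ephrin receptor gene EPHA2, BCAR3, the metallothionein gene MT2A, TMEM125 and BICDL2 (r of 0.991 to 0.995). For SEMA3F they were ISYNA1, which makes inositol phosphate, PTMAP5, QARS1, the glutaminyl-tRNA synthetase gene, TBCD and NPC2 (r of 0.993 to 0.995). MT2A and PTMAP5 have near-identical relatives, and the estimated counts could split reads between them.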

How the data were processed

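RNA-seq of 12 HCT116 samples was analysed, 3 in each of 4 groups taken from the sample titles. The authors deposited a table of estimated counts per gene, not normalized and partly fractional, which were rounded here. Although the labels name TPM, the column totals are unequal. Fastp, HISAT, RSEM and GRCh38 are named in the submitters' processing notes, with no versions or order. Gene length is the other deposited column used.

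The table has 60987 rows; 316 without a gene name, holding 0.748% to 1.65% of counts, were dropped. Low genes were removed with filterByExpr, at a minimum count of 10 and a minimum total of 15. All 12 samples entered a fit of 4 group means (edgeR 4.0.16, TMM, glmQLFit and glmQLFTest, R 4.3.3), with 5 contrasts, Benjamini-Hochberg adjustment over 16994 genes and a threshold of 0.05. The standard error is the size of the log2 fold change divided by the root of F. The biological coefficient of variation was 6.40%. Replicates differed by more than sampling noise (chi-square per degree of freedom 2.91 to 7.55). CPM use TMM-scaled library sizes. Limits given as 3 counts cover counting error only.

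The members and the gene lists were chosen with earlier results of these data known. Named genes outside the 10 are, in each list and at each time, up to 3 higher and 3 lower with the smallest adjusted p and a mean of at least 1 CPM; receptors, neuropilin partners, HIF1A, EPAS1 and ATF4 could be named at any value. Coordinates are from the GENCODE annotation of GRCh38 and promoters from RefSeq. The steps were tested on simulated counts. Alternatives were DESeq2 1.42.0, scaling by RLE or the upper quartile, no filter on low genes, a filter at a mean of 5 CPM, a replicate block, a fit of the compared groups alone, leaving out each sample and, added after seeing the data, library totals as the scale.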

Additional observations from a re-analysis of the deposited data

Results flagged for a closer look

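For 31 of the 46 named genes of the pathways outside the 10, the effect of deprivation differed between 48 h and 24 h by a test of the difference itself (edgeR, adjusted p under 0.05), 11 towards higher and 20 towards lower at 48 h. Values are the difference of log2 fold changes, 48 h minus 24 h. Among ligands, receptors and partners, it was -1.41 for PDGFA, 0.33 for PDGFB, 0.59 for L1CAM, 0.26 for SDC4 and -0.23 for DCBLD2. Among semaphorins it was -1.39 for SEMA6A, -0.98 for SEMA3G, -0.70 for SEMA6B, -0.49 for SEMA6C, -0.43 for SEMA4F, 0.45 for SEMA3B and 0.76 for SEMA7A. Among plexins it was -0.73 for PLXND1, -0.52 for PLXNB2, -0.35 for PLXNA3 and -0.34 for PLXNB1, and below plexins it was -0.45 for FARP2 and -0.33 for FARP1. Among convertases it was -0.30 for FURIN and 0.65 for PCSK7. Among regulators of VEGFA it was -1.01 for EGLN3, -0.83 for ZFP36, -0.71 for ZFP36L2, -0.42 for EPAS1, 0.26 for ATF4 and 0.36 for HIF1A. Among angiogenic factors it was -1.31 for ADM, -0.71 for ANGPTL4, 0.53 for TYMP, 0.88 for HBEGF and 0.91 for ANGPT4. The calls of PDGFB, PLXNB1, SDC4, ATF4, DCBLD2, FURIN and SEMA6C were each lost under 5 to 8 of 19 alternatives, with an adjusted p of up to 0.187 (PDGFB), and the other 24 held under all 19. The genes were named for their calls in the same comparisons of media, so the number of such differences is not independent of that choice.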

How the results depend on the processing

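No total of called genes moved by more than 1.5 times under any alternative. By direction, pathway genes lower with time in control cells numbered 6 to 7 on leaving out any of 4 control samples (11 with all), and differences of the deprivation effect towards higher numbered 11 without the third deprived sample at 48 h (17 with all). Over 300 results for single genes, 142 calls were lost and 50 gained across all alternatives, and no called value changed sign. Leaving out each sample gave 11113 to 11691 genes called between media at 48 h (11615 with all samples), 8587 to 9709 at 24 h (9451), 6240 to 7357 with time in deprived cells (7220) and 2914 to 4356 with time in control cells (3911). The replicate number as a block gave 11734, 9631, 7473 and 4306 in the same order, and 62, 62, 44 and 37 of the 79 pathway genes (61, 61, 41 and 34 without it); over the same 300 results it lost no call and added 5, among them ADM with time in deprived cells (adjusted p = 0.0247). Same-numbered samples correlated at -0.0640 to 0.211, which does not settle whether they are paired. The numbers were not taken to pair samples because the labels do not say that a number marks a shared culture or day. With library totals as the scale, the split of genes changed with time in control cells was 1697 higher and 2580 lower, against 2151 and 1760, and that of genes whose deprivation effect differed between the times was 3347 and 2847, against 2787 and 3261. That scale and the upper quartile each gave 4.04 for NRP1 at 24 h, and turned the 24 h split between media to 4086 higher and 5320 lower, and 4160 and 5300, against 4886 and 4565. MICAL3 at 48 h lost its call under upper-quartile scaling (adjusted p = 0.0646) and without control sample 3 (0.104) or deprived sample 3 at 48 h (0.0716). Among the 10 genes, the log2 fold change of VEGFA between media stayed within 1.65 to 1.77 at 48 h and that of SEMA3F within -2.69 to -2.46. The causes were not tested. With 3 samples a group and 7 to 30 counts per library, NRP2 is the least precise of the 9 tested.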
